A study of Mus musculus with 6 samples.

Results

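The miR-125, miR-99, miR-100 and miR-196 microRNAs (miRNAs) were followed in G1E-ER4 cells before and after activation of the erythroid transcription factor GATA-1. All array probes annotated as mmu-miR-125a, mmu-miR-125b, mmu-miR-99a, mmu-miR-99b, mmu-miR-100, mmu-miR-196a or mmu-miR-196b were taken (mmu- stands for mouse). This gave 7 miRNAs with 1 probe each, of 275 mouse miRNA names on 294 probes. Each probe was printed as 4 spots on each of 6 arrays, so that 24 spots in each dye channel were read for each miRNA. Of the 7 miRNAs, miR-125a and miR-125b gave signal in every culture, miR-125b on 5 arrays only in the reference channel. By the spot finder's call, miR-99b gave signal on 5 arrays. By the same call miR-100 gave signal on 5 arrays in the sample channel but on 1 in the reference channel, where 3 of its 4 spots had quality flags. None of its 24 sample spots exceeded background by 2 background SD. The probes of miR-99a, miR-196a and miR-196b read close to the level of empty positions, apart from 1 bright spot of miR-99a. Of the 7, 2 were bright enough for the main test of treated against untreated cells. Of these 0 passed, against 7 of 51 probes (13.7%). With all probes tested 0 of the 7 passed, against 19 of 294 (6.46%).

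G1E-ER4 is a mouse erythroid cell line that lacks endogenous GATA-1 and expresses an engineered GATA-1 that becomes active with estradiol, and the study asked which miRNAs respond to it. Total RNA was profiled from 3 untreated cultures, labelled 0 h, and from 3 cultures given 1e-07 M estradiol for 24 h, all of them independently grown and kept in medium with fetal calf serum, monothioglycerol, erythropoietin and stem cell factor. Each sample was labelled with Hy3 and hybridised against a common Hy5 reference mixed equally from all 6 samples, without a dye swap. Estradiol cultures without the inducible GATA-1, and untreated cultures kept for 24 h, were not analysed here, so GATA-1 activation cannot be told apart from other effects of estradiol or of time in culture. The RNA is from whole cultures, in which fewer cells holding a miRNA and less of it per cell cannot be told apart.

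MiRNAs guide silencing complexes to messenger RNAs mainly through their seed, a short stretch near the 5′ end, so family members with a common seed can act on overlapping targets. The miR-125, miR-99 and miR-100 genes lie with let-7 genes in paralogous clusters, and miR-125 family members are abundant in haematopoietic stem and progenitor cells, where extra miR-125 expands the stem cell pool and can cause leukaemia. The miR-196 and miR-10 genes lie within the Hox gene clusters, and miR-196 directs cleavage of the Hoxb8 messenger RNA.

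The mature sequences show which members share a seed and how little separates some of them, which matters for hybridisation. They are the RefSeq sequences of GRCm38.p6, written 5′ to 3′ with the seed, bases 2 to 8, in capitals. All 7 members were matched by name. The array names carry no arm, so each was paired with the 5p mature sequence, and the probes' own sequences were not used here.
miR-125a: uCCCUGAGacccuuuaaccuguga
miR-125b: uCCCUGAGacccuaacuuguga
miR-99a: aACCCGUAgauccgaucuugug
miR-99b: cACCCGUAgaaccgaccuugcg
miR-100: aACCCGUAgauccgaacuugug
miR-196a: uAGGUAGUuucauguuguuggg
miR-196b: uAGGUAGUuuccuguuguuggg
let-7e: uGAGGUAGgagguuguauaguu
miR-10a: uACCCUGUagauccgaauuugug

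The members fall into 3 seed groups: CCCUGAG in miR-125a and miR-125b, ACCCGUA in miR-99a, miR-99b and miR-100, and AGGUAGU in miR-196a and miR-196b. Counted from the 5′ end, miR-100 differs from miR-99a by U16A alone, and miR-196b differs from miR-196a by A12C alone. MiR-99b differs from miR-99a by A1C, U11A, U16C and U21C, and miR-125a is 3 edits from miR-125b. MiR-100 is also 3 edits from miR-10a, whose seed differs. Signal of 1 probe from its near-identical relative was not tested.

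In the same assembly, mature miR-99b is encoded at chr17:17830194-17830215, let-7e at chr17:17830366-17830387 and miR-125a at chr17:17830817-17830840, all on the plus strand and inside the span of the protein-coding gene Spaca6. Only 94 bases lie between the Mir99b and Mirlet7e genes and 367 between Mirlet7e and Mir125a. MiR-99a (chr16:77598940-77598961) lies beside Mirlet7c-1, with 1 copy of miR-125b (chr16:77646279-77646300) farther along the plus strand. MiR-100 (chr9:41531437-41531458) and the other copy of miR-125b (chr9:41581940-41581961) lie on the plus strand within the long noncoding RNA gene Mir100hg, with Mirlet7a-2 between them. A miR-125b signal therefore cannot be assigned to either gene. MiR-196a has copies at chr11:96265187-96265208, nearest to Hoxb9 among the Hox genes, and at chr15:102973365-102973386, near Hoxc10, and miR-196b lies at chr6:52230129-52230150 on the minus strand, near Hoxa10.

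MiR-125a gave strong signal on all 6 arrays. Its mean Hy3 intensity was 8022, 15476 and 6992 in untreated replicates 1 to 3 and 15461, 13877 and 14507 in estradiol replicates 1 to 3, over a local background of 980 to 1492. The spot finder called 23 of its 24 spots above background in Hy3 and 24 of 24 in the reference. In raw intensity, untreated replicates 1 and 3 were lower than the other 4 arrays, and the reference channel was lower on the same arrays, at 5559 and 6830 against 11572 to 16141 on the others. The ratio of sample to reference takes out what moves both channels of an array. All comparisons below use this ratio on the log2 scale, after background correction and loess normalisation within each array.

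**Figure D1:**
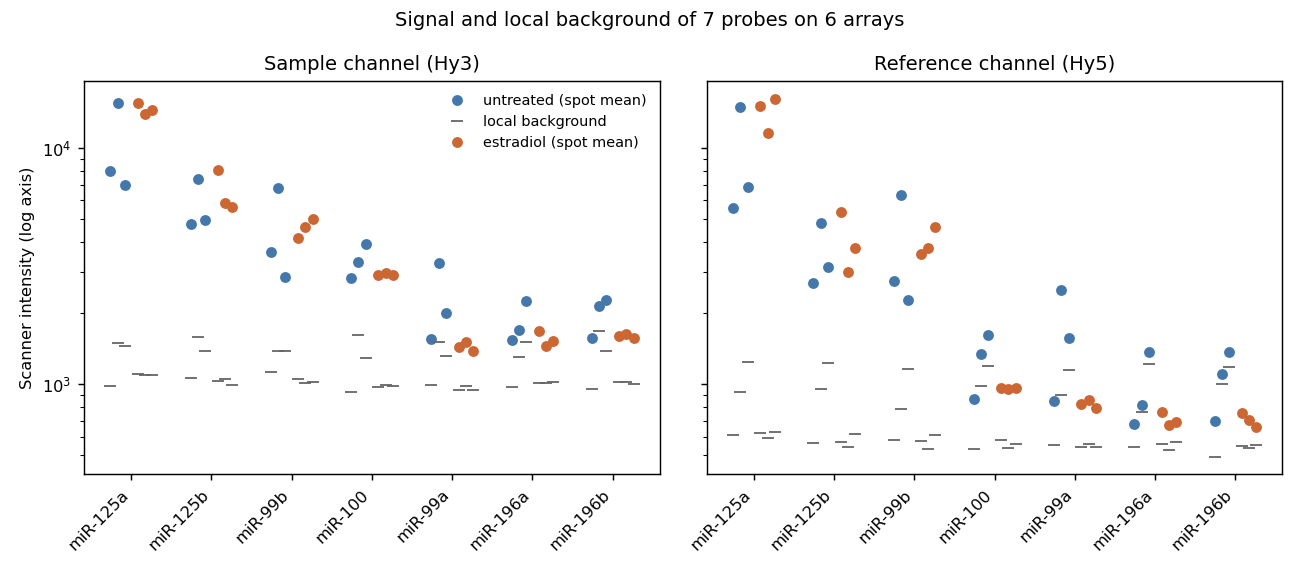
Mean spot intensity (log axis, scanner units) of the 7 probes in the sample and reference channels on each array, with the local background as a dash. MiR-125a, miR-125b and miR-99b lie above the dashes in both channels, miR-100 lies well above them in the sample channel only, and miR-99a, miR-196a and miR-196b lie close to them except for miR-99a on untreated replicate 2.

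The log ratio of miR-125a was 0.05, 0.12 and -0.02 in untreated replicates 1 to 3 and -0.04, 0.07 and -0.04 after estradiol. The groups overlapped, and the 6 values lay close to 0, the level on which loess centres each array. The group means were 0.05 ± 0.07 and -0.01 ± 0.06 (SD, n = 3 each). The difference, estradiol minus untreated, was -0.06 (SE 0.08, 95% interval -0.24 to 0.13; limma adjusted p = 0.714), and the interval spans 0.847 to 1.09-fold. Spots of miR-125a on 1 array agreed to a median SD of 0.11, with the widest scatter, 0.35, on untreated replicate 3.

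MiR-125b, the seed partner of miR-125a and the family member most studied in stem cell expansion and leukaemia, was also measured in every culture. Its mean Hy3 intensity was 4770, 7380 and 4974 in untreated replicates 1 to 3 and 8044, 5841 and 5616 after estradiol, with 24 of 24 spots above background. Its log ratio was 0.38, 0.73 and 0.99 in untreated cultures and 0.55, 0.72 and 0.69 after estradiol. The estradiol values lay inside the range of the untreated ones, and the untreated values were the more scattered. The means were 0.70 ± 0.31 and 0.65 ± 0.09 (SD, n = 3 each), a difference of -0.04 (SE 0.15, 95% interval -0.39 to 0.30; limma adjusted p = 0.873), or 0.764 to 1.23-fold at the interval's ends. The highest value, on untreated replicate 3, came from the array where 1 of 4 reference spots was above background; without it the difference was 0.10. MiR-125a minus miR-125b on the same array moved by -0.01 between the groups (exact permutation test, two-sided, p = 1). The smallest p that 3 against 3 arrays allow is 0.1. This test cannot show that the 2 miRNAs moved alike, as the untreated values of miR-125a minus miR-125b ran from -1.02 to -0.33. Without untreated replicate 3 the difference between the groups was -0.09 for miR-125a and 0.10 for miR-125b.

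MiR-125a and miR-125b were the members bright enough for the main test, in which a probe had to exceed its local background by 2 background SD on all 3 arrays of a group. Of the 51 probes tested, 7 (13.7%) passed the threshold of 0.05 on the adjusted p, and 0 of these were members. At an unadjusted p under 0.05 there were 15 tested probes, again with 0 members. The absolute differences of miR-125a and miR-125b, 0.06 and 0.04, compare with a median of 0.15 over the tested probes. When all 294 probes were tested, 19 (6.46%) passed and again 0 of the 7 members did, with a median difference of -0.04 over the members and -0.02 over all probes. That wider test takes in probes without signal, for which the ratio is a ratio of backgrounds. With the spot finder's own call as the filter, 15 of 86 probes (17.4%) passed, and 0 of the 4 members tested did.

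MiR-99b, which lies in the cluster of miR-125a and carries the seed of miR-99a and miR-100, gave moderate signal. Its mean Hy3 intensity was 3644, 6769 and 2841 in untreated cultures and 4171, 4651 and 5028 after estradiol. The spot finder called 20 of 24 spots above background in each channel, and 9 of 24 exceeded it by 2 background SD in Hy3. On untreated replicate 3 only 1 of the 4 miR-99b spots was called. Its log ratio was -0.26, 0.02 and 0.05 in untreated replicates 1 to 3 and -0.12, -0.14 and 0.04 after estradiol. The groups overlapped, with the lowest and the highest value both from untreated cultures. The difference was -0.01 (SE 0.14, 95% interval -0.31 to 0.29; limma adjusted p = 0.977, all probes tested), from 0.806 to 1.22-fold. With loess fitted on spots above background in both channels it was 0.40 (limma adjusted p = 0.243), beyond that interval. Like miR-125a, miR-99b lay near the level on which loess centres each array, with a mean linear ratio of 0.956 over the arrays.

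**Figure D2:**
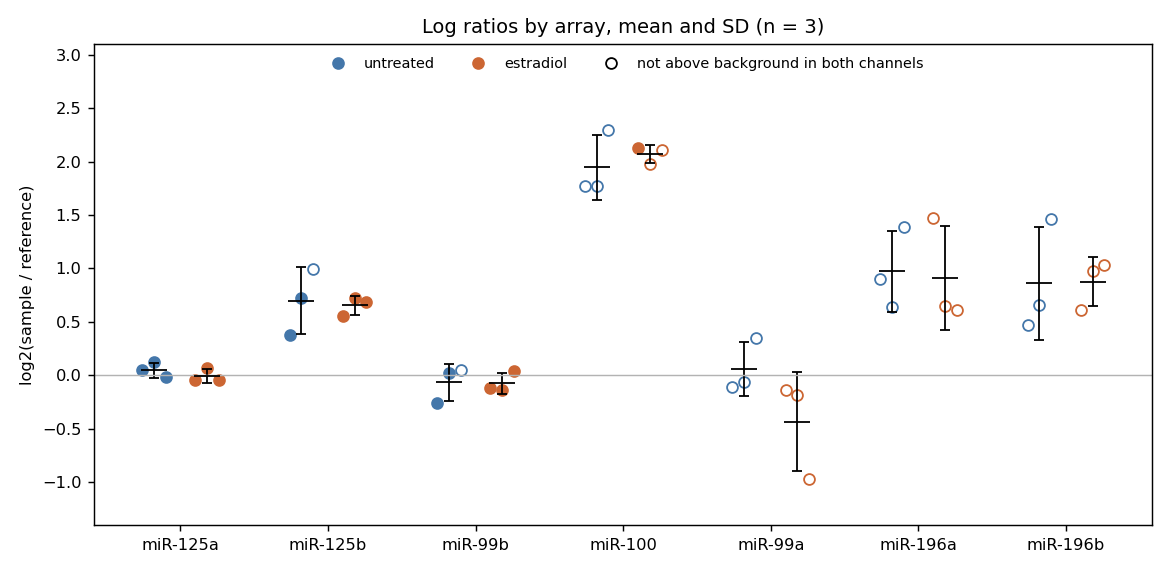
Log2 ratio of sample to reference for the 7 probes on each array (points), with the mean and SD of 3 arrays per group (bars). Open points mark arrays on which fewer than a share of 0.5 of the spots was above background in both channels. The filled miR-125a points lie near 0, those of miR-125b above 0, and all points of miR-196a and miR-196b are open. The miR-100 point of estradiol replicate 1 is filled but rests on 1 spot, as 3 were left out for quality flags.

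MiR-100, encoded near miR-125b on chromosome 9, had signal in the samples and almost none in the reference mixed from them. Its mean Hy3 intensity was 2826, 3289 and 3930 in untreated replicates 1 to 3 and 2907, 2972 and 2888 after estradiol. That is 1.95 to 2.14 times the median of the array's empty positions. The spot finder called 21 of 24 spots above background in Hy3, whereas 0 of 24 exceeded it by 2 background SD. The mean Hy5 intensity was 865, 1341 and 1613 in untreated cultures and 965, 957 and 963 after estradiol. In Hy5 the spot finder called 2 of 24 spots, both on estradiol replicate 1. At least 1 of these 2 was among the 3 spots left out there for quality flags. The log ratio was 1.77, 1.77 and 2.30 in untreated cultures and 2.12, 1.98 and 2.11 after estradiol, all high and overlapping between the groups. The difference was 0.12 (SE 0.17, 95% interval -0.24 to 0.49; limma adjusted p = 0.780). Since the reference is not well above background, the ratio has no measured denominator, and on estradiol replicate 1 it rests on 1 spot after 3 were left out for quality flags. With all spots kept the difference was -0.16, and it was -0.75 both in Hy3 alone and with loess fitted on spots above background in both channels, so its sign was not settled.

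A reference mixed equally from the 6 samples should give a mean linear ratio near 1. Over the 50 probes with signal in both channels on every array the median was 1.02. Loess centres the log ratios of each array near 0 whatever the reference holds, so this median cannot check the mix. MiR-125a lay at 1.02 and ranked 26 of these 50. MiR-125b lay at 1.61. For miR-100 no mean ratio is given, since its reference signal was not well above background. The same held for miR-10a, the Hox cluster miRNA whose sequence resembles miR-100, with 24 of 24 sample spots and 0 of 24 reference spots above background. Of the 59 probes with sample signal on all 6 arrays, 4 had no reference signal on any array. The log ratio of miR-125b was above 0 on every array of both groups, and the source of this excess was not tested. A level of miR-125b or miR-100 relative to the reference therefore should not be read as a level relative to the average of the 6 cultures.

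The remaining members gave no signal that the spot finder separated from background, with 1 spot as the exception. For miR-196a, 0 of 24 spots were above background in either channel, and its mean Hy3 intensity ran from 1446 to 2248 over the arrays. For miR-196b it was also 0 of 24, with intensities from 1565 to 2275. The 80 empty positions of each array had median Hy3 intensities of 1392, 1691 and 1834 on the untreated and 1426, 1413 and 1410 on the estradiol arrays, and the 95th percentile of the empty positions ran from 1513 to 2767 over the arrays. The array means of miR-196a were at most 1.23 times the empty median and exceeded that percentile on 3 of 6 arrays. Those of miR-196b were 1.11 to 1.27 times the empty median and exceeded it on 5 of 6 arrays, by small margins, while the spot finder called none of their spots. The log ratios of miR-196a ran from 0.61 to 1.47 and those of miR-196b from 0.47 to 1.46, with the groups overlapping. All lay above 0, although no spot was called in either channel. Whether a weak sample signal adds to these ratios was not tested. Both probes were not well above background in either group, so no fold is given and a low level of miR-196 was not detectable here.

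MiR-99a, which differs from miR-100 by 1 base, had 1 of 24 spots above background, on untreated replicate 2. That spot read 6932 in Hy3, whereas the lowest spot of the same probe on that array read 1674. The array means in Hy3 were 1552, 3256 and 1996 in untreated cultures and 1444, 1509 and 1377 after estradiol. The log ratio was -0.11, -0.07 and 0.35 in untreated cultures and -0.14, -0.19 and -0.97 after estradiol. MiR-99a was the only member whose groups did not overlap, as did not those of 22.4% of all 294 probes. The difference was -0.49 (SE 0.23, 95% interval -0.98 to -0.00; limma adjusted p = 0.266, unadjusted p = 0.0480). As the probe was not well above background in either group, this is not a measured fall.

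The chromosome 17 cluster allows its 3 miRNAs to be set side by side, since their genes are neighbours on the same strand. Let-7e, the middle gene, passed the main test, whereas miR-125a on 1 flank did not and miR-99b on the other was not bright enough to enter. With all probes tested, let-7e passed (limma adjusted p = 0.000135) and both neighbours did not. Its log ratio was 0.40, 0.14 and 0.21 in untreated cultures and -0.36, -0.57 and -0.38 after estradiol, without overlap. Its mean Hy3 intensity was 16609, 21882 and 22464 in untreated replicates 1 to 3 and 22870, 18986 and 19271 after estradiol. In Hy5 it was 10194, 21231 and 22787, then 28312, 24845 and 27770. In raw intensity the groups thus overlapped in Hy3, whereas Hy5 was higher on every estradiol array, and the cause was not tested. The log ratio of let-7e fell by 0.69, or 1.61-fold (SE 0.10 in log2, limma adjusted p = 0.000774). To test whether this differed from its neighbours, the log ratios were subtracted within each array, which removes any shift common to both probes.

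Let-7e minus miR-125a was 0.35, 0.02 and 0.23 in untreated replicates 1 to 3 and -0.32, -0.63 and -0.34 after estradiol. Every untreated array lay above every estradiol array. The mean went from 0.20 ± 0.17 to -0.43 ± 0.18 (SD, n = 3 each), a difference of -0.63 or 1.55-fold, at the smallest p the design allows (exact permutation test, two-sided, p = 0.1). Let-7e minus miR-99b was 0.66, 0.12 and 0.17 in untreated cultures and -0.24, -0.42 and -0.42 after estradiol, again without overlap. Its mean went from 0.31 ± 0.30 to -0.36 ± 0.10 (SD, n = 3 each), a difference of -0.68 or 1.60-fold (exact permutation test, two-sided, p = 0.1). With 3 arrays a group this exact test cannot give a p under 0.1, so these differences are given as descriptions. The separation of the groups was lost in Hy3 alone for both (-0.68, p = 0.4 against miR-125a and -0.56, p = 0.7 against miR-99b, exact permutation tests), and for miR-99b also with loess fitted on spots above background in both channels (-1.06, exact permutation p = 0.2).

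**Figure D3:**
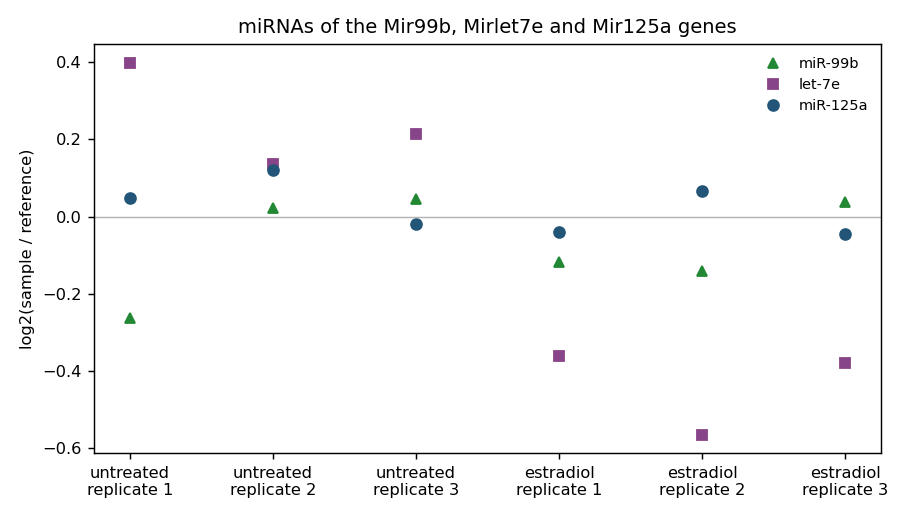
Log2 ratio of sample to reference on each array for miR-99b, let-7e and miR-125a, whose genes are neighbours on chromosome 17. Let-7e lies between 0.14 and 0.40 in untreated cells and between -0.57 and -0.36 after estradiol, whereas miR-125a stays between -0.04 and 0.12 and miR-99b between -0.26 and 0.05.

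The let-7 miRNAs of the paralogous clusters pointed the other way from let-7e without passing the test, except in Hy3 alone, where they too were lower (-0.47 for each). Let-7c, encoded beside miR-99a and also elsewhere, differed by 0.16 (SE 0.10; limma adjusted p = 0.333). Let-7a, encoded between miR-100 and miR-125b on chromosome 9 and also elsewhere, differed by 0.26 (SE 0.13; limma adjusted p = 0.253). Without untreated replicate 3, let-7a passed, at 0.31 (limma adjusted p = 0.0498). Let-7a differs from let-7e by G9U, and let-7c differs from let-7e by G9U and A19G. What the let-7 probes share was not tested.

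**Figure D4:**
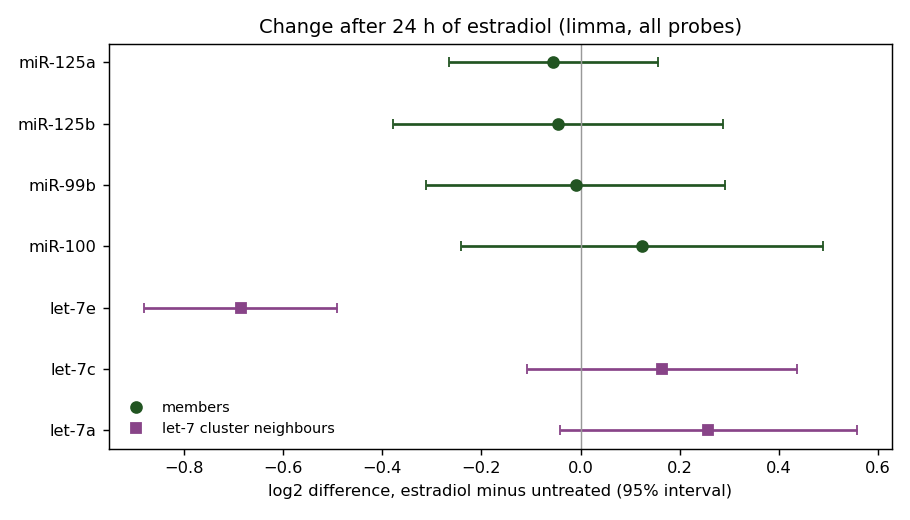
Difference in log2 ratio, estradiol minus untreated, with 95% intervals from the limma fit over all 294 probes. Circles are the 4 members with signal by the spot finder's call, and squares are the let-7 miRNAs of their clusters. The intervals of the 4 members include 0, and that of let-7e lies below it.

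The tested probes whose pattern over the 6 arrays was most like that of miR-125a were miR-423, miR-184 and miR-382, by root mean square difference of centred log ratios (0.052, 0.064 and 0.070, against a median of 0.152 over the other 50 tested probes). For miR-125b they were miR-324-3p, miR-291b-5p and miR-494 (0.093, 0.10 and 0.11, against a median of 0.252). The differences between the groups of these 6 probes lay between -0.06 and 0.01. They were chosen for a like pattern on the same arrays, so differences near those of the members follow from the choice. Of 13 other miRNAs named for stem and progenitor cells, on 14 probes, 2 were bright enough for the main test, miR-10a and miR-130a, and 0 passed. Without the brightness filter 2 of the 14 probes passed, miR-29a as higher and miR-222 as lower, both too dim for the main test. Over all probes, 7 of 51 (13.7%) passed the main test and 19 of 294 (6.46%) the test without the filter. Of the 14 probes, 10 were above background on no array.

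In the authors' deposited table, log2 ratios of miR-125a were 0.11, 0.15 and 0.16 in untreated cultures and -0.00, 0.14 and -0.02 after estradiol. For miR-125b that deposited table gave 0.53, 0.73 and 1.15, then 0.40, 0.78 and 0.67. In the authors' deposited table miR-99b had no ratio on untreated replicate 3 and miR-100 none on untreated replicate 2. The same table listed no ratio for miR-99a, miR-196a and miR-196b.

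The cells and treatment were checked on other probes. MiR-451, a miRNA of maturing red cells, went from a log ratio of -4.37 ± 0.33 to 0.67 ± 0.11 (SD, n = 3 each), and of 5 erythroid miRNA probes 0 were above background on all untreated arrays and 4 on all estradiol arrays. Of 4 probes for myeloid and mast cell miRNAs, 3 were higher after estradiol when all probes were tested. In that test 19 of 294 probes (6.46%) passed in either direction. Of the 4, 1 was bright enough for the main test, which it passed. The part of these miRNAs in the members' values was not tested. The lymphoid, megakaryocyte, fibroblast, neural and muscle lists held 1, 4, 4, 2 and 2 probes, and 0 passed. Of these probes 0, 2, 1, 0 and 0 were bright enough for the main test, so the count says little about those cell types. No probe carried the name of miR-133a (muscle) or miR-122 (liver). The arrays differed in how many probes gave signal: between 79 and 84 miRNA probes were above background in Hy3 on the untreated and between 102 and 109 on the estradiol arrays, and the cause of this difference was not tested. The median Hy3 background was highest, 1412, on untreated replicate 3. On that array 1 of 4 spots was above background for miR-99b, and likewise for miR-125b in the reference. Whether background led to this was not tested.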

How the data were processed

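Per the file headers, the deposited scanner tables hold foreground and local background intensity per spot in each channel, not background-subtracted. Per the labels, a service provider did the labelling; no source used here names the scanner or its settings. The authors' deposited ratio tables hold the fold of Hy3 over Hy5 after lowess within each array, and the deposited log2 values are its log2; these correlated at 0.992 to 0.999 with those computed here, across probes.

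Mean intensities were corrected with normexp (offset 50) and normalised by loess with control spots at weight 0 (limma 3.58.1, R 4.3.3). The 131 to 224 spots per array with quality flags were left out, saturated spots kept, and spots averaged per probe. A probe entered the main test if its Hy3 median exceeded background by 2 SD in a share of 0.5 of spots on all arrays of a group (51 of 294). Groups were compared with lmFit and eBayes (intensity trend) and Benjamini-Hochberg adjustment at 0.05. The text names every member, its cluster neighbours, miR-451 and the 3 probes most like each tested member. Members and lists were chosen with earlier results of these data known. P-values measure the spread between arrays, each from an independently grown culture, so spread from culture and from labelling or hybridisation cannot be told apart. In limma the variances were also moderated across probes. The number of arrays limits precision. The procedure was tested on simulated data.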

Additional observations from a re-analysis of the deposited data

How the results depend on the processing

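No member passed the threshold under any alternative run, with or without the brightness filter, and let-7e did in 19 of 20, the exception being Hy3 alone (-0.42, adjusted p = 0.194). The count of all probes called, 7 with the filter, was 11 without background correction, 4 with median centring, 19 without the filter and 15 with the spot finder's call, the last chosen after seeing the data. Without the filter it was 19, and then 12 with median centring, 12 with loess on spots above background in both channels, 4 in Hy3 alone and 8 without the intensity trend. Leaving out each replicate gave 5 to 9 with the filter and 9 to 25 without, lowest without estradiol replicates 1 (9) and 2 (11). The sign changed for miR-125b without background correction (0.050), with that loess (0.16), without untreated replicate 3 (0.10) and without estradiol replicate 1 (0.01). It changed for miR-125a with that loess (0.027) and in Hy3 alone (0.26), for miR-10a with that loess (-0.33), in Hy3 alone (-0.38) and in the authors' ratios (-0.26), and in Hy3 alone for let-7a (-0.47) and let-7c (-0.47). Of the members with weaker signal, miR-100 turned in 5 of 20 alternatives (-0.75 with that loess, -0.75 in Hy3 alone, -0.44 in the authors' ratios, -0.10 on spiked controls and -0.16 with all spots kept), and miR-99b, near 0, in 7 of 20, reaching 0.40 with that loess. The cause was not tested. The median difference of the tested probes was -0.05, and it was -0.12 with median centring, 0.18 with that loess, -0.23 when centred on spiked controls and 0.13 in Hy3 alone. Over all miRNA probes it was -0.02, and -0.87 with that loess, which bears on the members read without the filter. When untreated replicate 3 was left out, let-7a passed (0.31, adjusted p = 0.0498), and miR-125b ranged from -0.21 to 0.10 over the left-out replicates. Let-7e minus miR-125a ranged from -0.72 to -0.53, and minus miR-99b from -0.78 to -0.50, when single replicates were left out. Both kept their sign in the other alternatives that gave them, but the groups overlapped in Hy3 alone (-0.68 and -0.56; exact permutation p = 0.4 and 0.7), and for miR-99b with that loess (-1.06, p = 0.2). Same-numbered cultures did not deviate together (r = 0.07, -0.11 and -0.12 across probes); with the replicate block, 8 probes were called with the filter and 22 without, and 0 members. A slide or scan date block was not run, since no date or slide was used here. Signal over background limits miR-99b, miR-100 and the 3 dark members, for which differences were not detectable.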
